A study of Xenopus tropicalis with 17 samples.

Results

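Expression of the genes of bone morphogenetic protein (BMP) and transforming growth factor beta (TGF-beta) signalling was followed over 3 stages in Xenopus tropicalis frog embryos of 3 sf3b4 genotypes. The genes were chosen by name, as ligands, receptors, Smad proteins, secreted antagonists and Id genes of the 2 pathways. Earlier results of these data were known when the choice was made. Of 26531 gene names, 75 matched, and 63 of them had 10 or more counts in at least 2 libraries. These 63 genes comprised 24 ligands, 12 receptors, 9 Smads, 11 extracellular antagonists or modulators, the decoy receptor bambi, 3 Id genes and 3 genes linked to the pathways mainly by name (bmp2k, tgfb1i1 and tgfbrap1). The other 12 names (acvr1c, bmp15, bmp8, chrdl1, chrdl2, gdf15, gdf5, inhbc.2, nodal3.1, nodal5, nodal6 and tgfbr2.2) never had more than 10 counts in a library and are not described further.

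BMP, TGF-beta, activin and nodal ligands are secreted dimers that join type I and type II receptor kinases at the cell surface. The type I receptor phosphorylates a receptor Smad, which enters the nucleus with the shared partner Smad4 and switches target genes such as the Id genes on. In the frog embryo, BMP ligands on the ventral side are held back dorsally by chordin, noggin and follistatin, and the resulting gradient patterns ectoderm, neural crest and mesoderm.

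The labels placed 17 libraries of whole embryos in 9 groups, by sf3b4 genotype (wild type, Sf3b4 heterozygous and null) and by stage (15, 25 and 35). The sf3b4 gene encodes a spliceosome protein that acts in the removal of introns. Each library held the RNA of 5 pooled embryos. Each group had 2 pools except the null group of stage 15, which had 1. The labels list no treatment, and the mutant allele and the way null embryos were recognised are not given in the sources used here. The labels do not say whether pools came from separate clutches, so the p-values below measure only the spread between these pools. In whole embryos, fewer cells that express a gene and less RNA per cell cannot be told apart.

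Library totals ran from 11714437 to 21639041 counts, and 17742 genes were tested, with all 63 pathway genes among them. The CPM (counts scaled to the library size) of sf3b4 itself were 144 and 147 in wild type and 110.4 and 113 in null pools at stage 25. They were 83.6 and 107 in wild type and 74.8 and 80.2 in null pools at stage 35. The null pools were lower at both stages, but neither difference passed the test (edgeR, adjusted p = 0.433 and 0.394). All 27 markers of 8 tissues fixed for whole embryos were above 1 CPM in some library. The first principal component of all tested genes, with 70.5% of the variance, ordered the libraries by stage. Among stage 15 libraries, the second wild type pool stood apart, at -129.4 against -166.2 to -157.3 for the others. The stage 35 null pools lay at 128.4 and 135.2, against 150.3 to 155.6 for the other stage 35 pools.

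The 63 genes held 0.401% to 0.452% of all counts at stage 15, 0.363% to 0.409% at stage 25 and 0.272% to 0.285% at stage 35. Their own first principal component took 76.7% of their variance and placed the same libraries apart. The second wild type pool of stage 15 was at -9.02 and the other stage 15 pools at -12.6 to -11.2. The null pools of stage 35 were at 8.48 and 9.05, and the other stage 35 pools at 10.6 to 11.06. Of the 63 genes, 42 reached 10 counts in every library. Only 5 reached that count at a single stage: gdf9 and nodal at stage 15, and bmp10, fstl5 and inhbc.1 at stage 35. The receptor-like gene tgfbr3l reached it in null pools alone, so it entered the list through the group in which it was high.

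**Figure D1:**
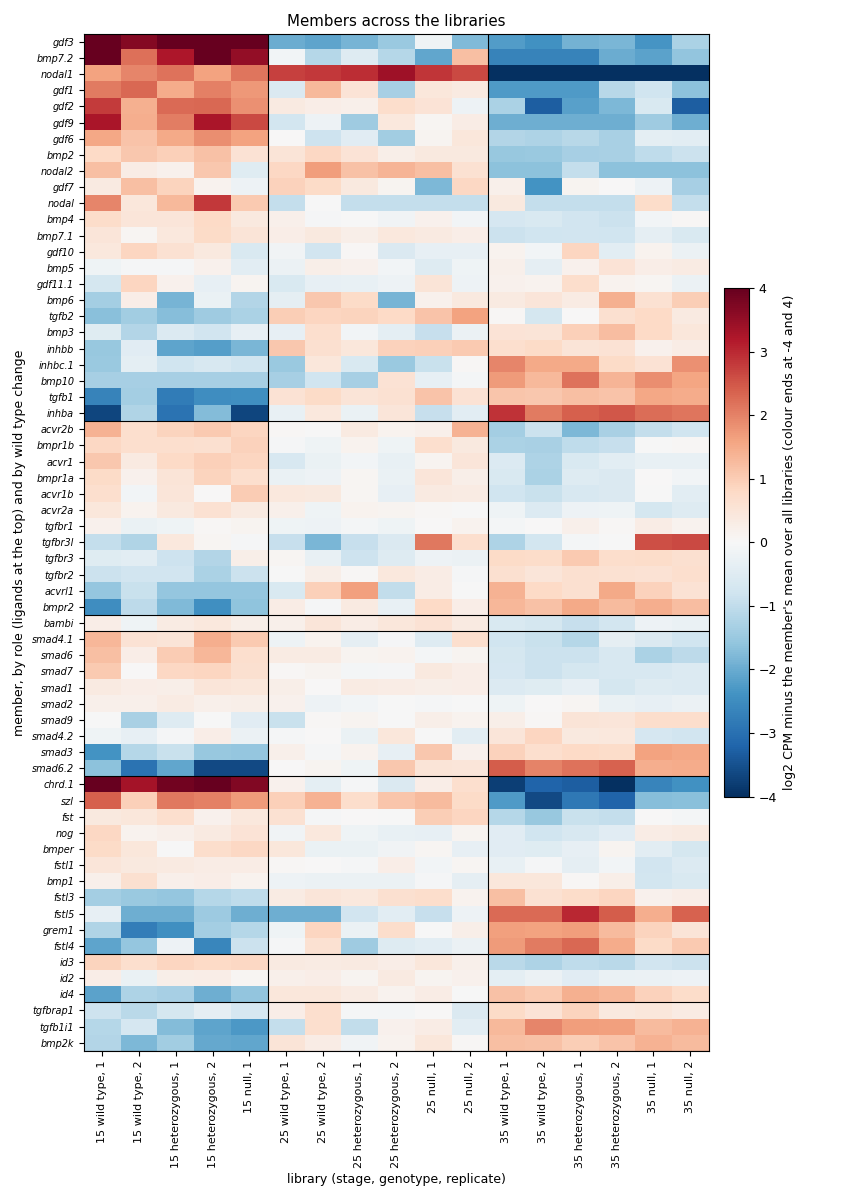
Each row is 1 of the 63 genes, ordered by role, and each column 1 of the 17 libraries; colour gives log2 CPM minus the mean of that gene over all libraries, with colours ending at a difference of 4. The columns group by stage, and tgfbr3l is high in the null columns of stages 25 and 35.

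Many of these genes changed with stage in wild type embryos. Between stages 15 and 25, 16 of 63 genes rose and 13 fell at an adjusted p under 0.05 (edgeR), where 40.3% of all tested genes were called (23.4% higher and 16.9% lower). Between stages 25 and 35, 12 rose and 22 fell, where 47.2% of all tested genes were called (24.7% higher and 22.5% lower). Genes that reached 10 counts at 1 stage alone entered the list through the stage at which they were high. Of these, gdf9, bmp10 and fstl5 were among the calls, and nodal and inhbc.1 were not. The counts are given as a description.

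Among the ligands, gdf3 (a relative of Vg1 and nodal) had 48.4 and 24.4 CPM in the wild type pools of stage 15 and 0.351 and 0.307 CPM at stage 25. Its fall was the steepest of the first step by the fitted log2 change (-6.75 (SE 0.55); edgeR adjusted p = 7.34e-07). The ligand copy bmp7.2 was at 15.6 and 3.66 CPM at stage 15 and 0.643 and 0.246 CPM at stage 25 (log2 fold change -4.41, SE 0.95, adjusted p = 0.00227, edgeR). The 2 stage 15 pools differed severalfold from each other, but both were above the stage 25 pools. The gene gdf2, which encodes a ligand (BMP9 in mammals) that acts on endothelial cells, fell in both steps, by log2 changes of -2.04 (SE 0.74) and -2.75 (SE 0.99) (edgeR adjusted p = 0.0384 and 0.0325). Its wild type pools had 3.15 and 1.78 log2 CPM at stage 15, 0.72 and 0.63 at stage 25 and -0.90 and -2.93 at stage 35. The last is the value of a library without counts of the gene, so the later change rests on low counts.

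The genes of the TGF-beta ligands tgfb1 and tgfb2 went up between stages 15 and 25. For tgfb1, the wild type pools had 1.99 and 5.05 CPM at stage 15 and 19.8 and 22.7 CPM at stage 25 (log2 fold change 2.62, SE 0.32, adjusted p = 2.32e-05, edgeR). For tgfb2 they had 3.18 and 3.88 CPM and then 20.6 and 19.2 CPM (log2 fold change 2.50, SE 0.32, adjusted p = 3.01e-05, edgeR). The 2 genes did not follow each other afterwards: tgfb2 fell to 10.9 and 6.44 CPM at stage 35 (log2 fold change -1.19 (SE 0.30)), and tgfb1 stood at 28.6 and 28.0 CPM with a change of 0.42 (95% interval -0.20 to 1.03). The gene of the activin A subunit, inhba, rose in both steps, from 0 and 0.585 CPM at stage 15 to 1.23 and 2.09 at stage 25 and 12.2 and 6.90 at stage 35 (edgeR adjusted p = 0.0165 and 0.00310).

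The nodal ligand gene nodal1, which acts in left-right patterning after gastrulation, was still present at 22.3 and 24.0 CPM in the wild type pools of stage 25. At stage 35 it had 1 and 1 counts, which made it at least 108-fold lower (floor of 3 counts per library; edgeR adjusted p = 6.96e-08). All pools of the 3 genotypes were at 1 count or fewer at stage 35. The ventral ligand gene bmp4 fell in both steps, from 189 and 158 CPM to 129 and 109 and then 70.5 and 74.5 CPM (log2 fold change -0.54 (SE 0.16) and -0.72 (SE 0.16)). For bmp2, the fall came in the later step, from 29.5 and 37.2 to 7.21 and 7.27 CPM (log2 fold change -2.20, SE 0.21, adjusted p = 1.44e-06, edgeR).

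The organizer antagonist chrd.1, the gene of chordin, had 358 and 173 CPM in the wild type pools of stage 15. It had 19.3 and 13.1 CPM at stage 25 and 1.15 and 1.74 CPM at stage 35, with a log2 change of -4.03 (SE 0.34) and then -3.50 (SE 0.41) (edgeR adjusted p = 9.40e-07 and 8.37e-06). The groups were far from overlapping at each step, although the first stage 15 pool was well above the second. The gene szl encodes sizzled, a secreted inhibitor of the proteases that cut chordin, and had 81.5 and 30.3 CPM at stage 15, 29.9 and 40.2 at stage 25 and 3.099 and 1.14 at stage 35. Its later fall passed the test (log2 fold change -4.02 (SE 0.46), edgeR adjusted p = 7.58e-06), and the earlier one did not (0.165). Going the other way, the BMP antagonist gene grem1 rose from 1.35 and 0.366 CPM to 2.86 and 6.02 and 10.4 and 10.3 CPM (edgeR adjusted p = 0.00414 and 0.0466).

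Inside the cell, smad6.2, a second gene of the inhibitory Smad6, rose in both steps from under 1 CPM to 8.35 and 6.14 CPM at stage 35 (log2 fold change 2.62 (SE 0.72) and 2.24 (SE 0.55)). Its partner smad6 went from 177 and 91.7 CPM at stage 15 to 95.8 and 96.6 at stage 25 and 46.4 and 42.2 at stage 35. Only the later fall of smad6 passed the test (log2 fold change -1.12 (SE 0.23), edgeR adjusted p = 0.00125). Gene copies of this kind can share reads, and how the counting treated such reads is not given in the sources used here. The focal adhesion adaptor gene tgfb1i1 also rose in the later step, from 1.81 and 5.78 to 8.96 and 14.4 CPM (log2 fold change 1.62, SE 0.48, adjusted p = 0.0124, edgeR).

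The count of calls in these steps rested partly on single pools. For the first step it was 32 without the second wild type pool of stage 15, 22 without the first and 20 without the second wild type pool of stage 25, and for the later step it was 22 without the second wild type pool of stage 35.

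In stage 35 null embryos, the BMP type I receptor genes bmpr1a and bmpr1b were higher than in wild type embryos. So were bmp4 and the antagonist genes noggin and follistatin, while smad4.2 and the protease gene bmp1 were lower. Several of these calls, those of bmp4, bmpr1a and nog among them, were lost when single pools were left out. Of the 63 genes, 6 were called higher and 2 lower (edgeR, adjusted p under 0.05), or 12.7%. Among all tested genes 9.75% were called, 4.80% higher and 4.95% lower, so the share of calls among the pathway genes, tgfbr3l included, was near the background. The median log2 fold change of the 63 genes was 0.15 and that of all tested genes was -0.03. By role, 3 of 12 receptors, 1 of 24 ligands and 2 of 11 extracellular antagonists or modulators were called higher. Called lower were 1 of 9 Smads and 1 of those 11 modulators. Of the 3 receptors, tgfbr3l entered the list through null pools alone.

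The gene bmpr1b encodes a BMP type I receptor. At stage 35 its level was 20.9 and 20.5 CPM in wild type, 24.9 and 26.9 CPM in heterozygous and 50.4 and 52.0 CPM in null pools. Both null pools were above all 4 others, and the null mean was 2.48 times the wild type mean (log2 fold change 1.31, SE 0.17, adjusted p = 0.000281, edgeR). A second BMP type I receptor gene, bmpr1a, had 45.1 and 28.5 CPM in wild type, 47.4 and 45.5 CPM in heterozygous and 69.7 and 62.7 CPM in null pools. The null pools again did not overlap the others, but the wild type pools differed widely (log2 fold change 0.85, SE 0.23, adjusted p = 0.0329, edgeR). Without the second wild type pool the adjusted p of bmpr1a was 0.324.

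The third receptor gene called, tgfbr3l, is named for its likeness to the TGF-beta coreceptor betaglycan, and in mice its product is a coreceptor for inhibin B. Its counts at stage 35 were 1 and 2 in wild type, 4 and 4 in heterozygous and 45 and 38 in null pools. The wild type pools were at the floor of 3 counts per library, and the null pools were at least 12.6-fold higher (edgeR adjusted p = 0.00587). Because the gene entered the list through null pools only, its call says nothing about the list. The adjusted p was 0.0577 in the least favourable alternative, which left out a wild type pool of stage 35.

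Of the other 9 receptor genes none passed the test at stage 35. For acvr1, a further BMP type I receptor, wild type pools had 21.2 and 13.0 CPM and null pools 25.1 and 25.0 CPM, a log2 difference of 0.55 (adjusted p = 0.222) by edgeR. The receptor gene acvr1b had 3.64 and 3.41 CPM in wild type, 4.06 and 4.22 CPM in heterozygous and 6.31 and 4.71 CPM in null pools. Both null pools of acvr1b were above all wild type and heterozygous pools of that stage. The type II receptor gene bmpr2 differed by 0.11 (95% interval -0.63 to 0.86), acvr2a by -0.27 (95% interval -0.65 to 0.12) and tgfbr2 by 0.05 (95% interval -0.38 to 0.49) on the log2 scale. The interval of bmpr2 reached the difference fitted for bmpr1a, and those of acvr2a and tgfbr2 did not.

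**Figure D2:**
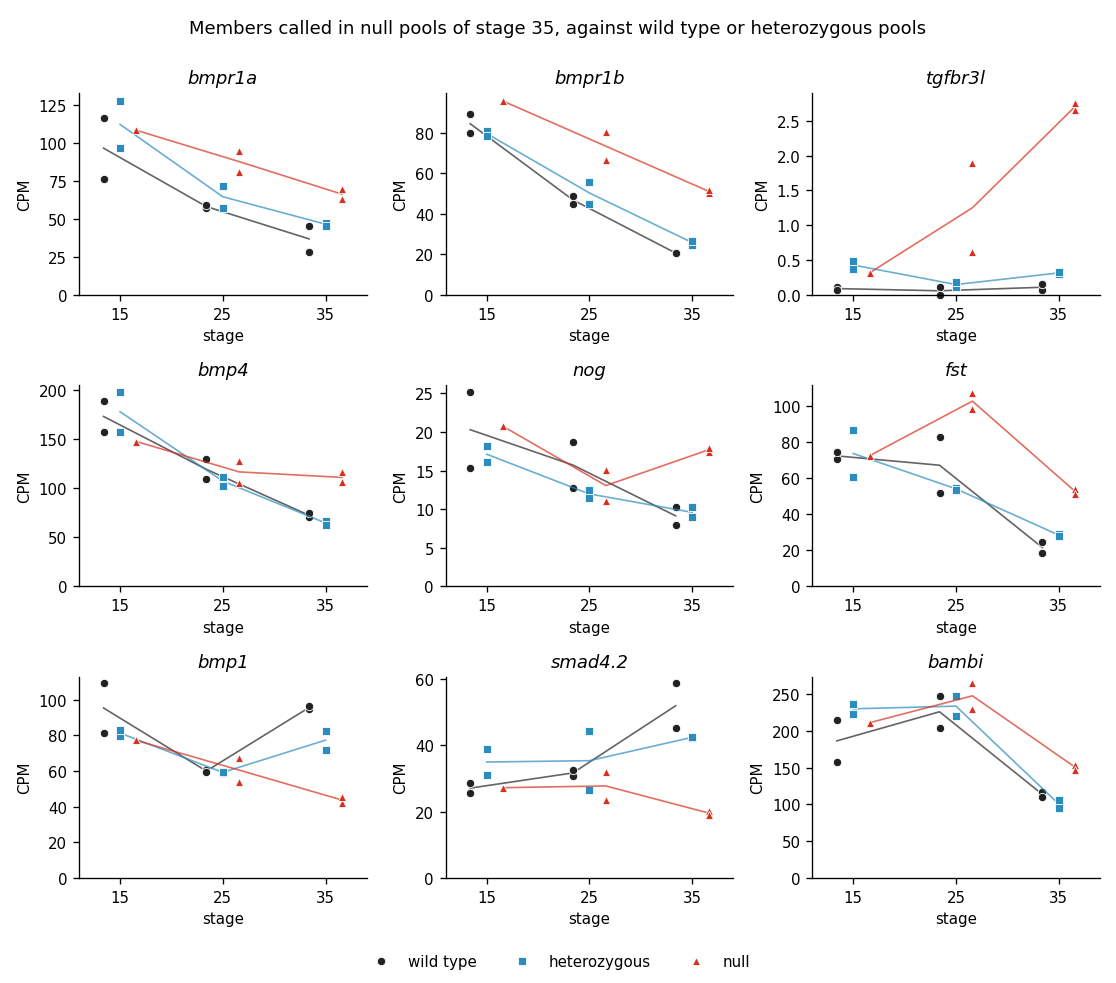
CPM (linear axis) of the 9 genes called in a genotype comparison at stage 25 or 35, by stage; each point is 1 pool, shifted sideways by genotype, and lines join the group means. At stage 35 the null points lie above the others in bmpr1a, bmpr1b, tgfbr3l, bmp4, nog, fst and bambi, and below them in bmp1 and smad4.2.

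Among the ligands, edgeR called bmp4 alone at stage 35, and DESeq2 called tgfb2 as well. The level of bmp4 was 70.5 and 74.5 CPM in wild type, 66.4 and 63.0 CPM in heterozygous and 106 and 116 CPM in null pools. Null pools were above all others, 1.53 times the wild type mean (log2 fold change 0.62, SE 0.16, adjusted p = 0.0283, edgeR). The call was lost when any 1 of the 4 pools of the comparison was left out, with an adjusted p of up to 0.187. The related ligand gene bmp2 had 7.21 and 7.27 CPM in wild type and 10.2 and 11.4 CPM in null pools, and bmp7.1 had 41.8 and 44.0 CPM and 59.9 and 49.5 CPM. For both, null pools were above wild type pools without passing the test (edgeR, log2 difference 0.57 (adjusted p = 0.101) and 0.35 (adjusted p = 0.227)). The TGF-beta ligand gene tgfb2 had 10.9 and 6.44 CPM in wild type and 18.3 and 13.5 CPM in null pools (log2 fold change 0.87, SE 0.30, adjusted p = 0.0791, edgeR), but the heterozygous pools, at 10.6 and 16.3 CPM, overlapped the null pools. Its adjusted p was 0.0486 by DESeq2 and, by edgeR, 0.0426 without the first wild type pool of stage 35. The ligand gene tgfb1 had 4.85 and 4.82 log2 CPM in wild type, 4.96 and 4.89 in heterozygous and 5.30 and 5.24 in null pools. Its null pools, and those of gdf6, were above all wild type and heterozygous pools of stage 35. The null pools of inhbb and gdf11.1 were below all of them. For these and the other genes named for such a position, the share of all tested genes placed alike is not given here. The positions are therefore description only, and the genes named are not a full list. Null pools also stood above the other stage 35 pools in bmp2k (23.3 and 21.4 CPM) and below them in fstl4 (1.24 and 1.52 CPM). The wild type counts of bmp7.2 and nodal at stage 35 were within 3 per library, and no fold is given.

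The secreted antagonists did not move as a group. Follistatin, the product of fst, binds activins and some BMPs. The gene had 24.7 and 18.6 CPM in wild type, 29.1 and 28.0 CPM in heterozygous and 54.2 and 51.4 CPM in null pools of stage 35. The null pools were 2.44 times the wild type mean and above all other pools of that stage (log2 fold change 1.28, SE 0.22, adjusted p = 0.00253, edgeR). For nog, which encodes the BMP antagonist noggin, the levels were 10.3 and 7.96 CPM, 8.95 and 10.2 CPM and 17.4 and 18.0 CPM in the same order. The null pools stood clear of the other 4 (log2 fold change 0.95, SE 0.28, adjusted p = 0.0447, edgeR), yet the adjusted p lay close to the threshold and stayed under it in 10 of 21 alternative analyses.

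The protease gene bmp1, whose product cuts chordin and procollagens and is not a BMP ligand, went down. Its levels at stage 35 were 94.9 and 96.5 CPM in wild type, 72.0 and 82.7 CPM in heterozygous and 42.0 and 45.5 CPM in null pools. The null pools were lowest, at 0.457 times the wild type mean, and the heterozygous pools lay in between (log2 fold change -1.13, SE 0.17, adjusted p = 0.000890, edgeR). The follistatin-like genes fstl1 and fstl3 were also at lower levels in null pools without passing edgeR's test. For fstl1 the levels were 446 and 535 CPM in wild type, 434 and 515 CPM in heterozygous and 326 and 375 CPM in null pools, and both null pools were below the other 4 (edgeR, log2 difference -0.48 (adjusted p = 0.0707)). By DESeq2 the adjusted p of fstl1 was 0.0323, under the threshold. For fstl3 they were 13.9 and 9.24, 10.1 and 11.11 and 6.72 and 7.24 CPM (log2 difference -0.73 (adjusted p = 0.132)). The gene of chordin, chrd.1, had only 1.15 and 1.74 CPM in wild type and 2.65 and 3.11 CPM in null pools, and szl had 3.099 and 1.14 CPM, and 4.60 and 4.78 CPM, in the same order. Both were above wild type in both null pools, and neither passed the test (edgeR, log2 difference 1.0 (adjusted p = 0.195) and 1.12 (adjusted p = 0.157)). Of 21 alternative analyses, chrd.1 was called in 1 and szl in 3. With no filter on low counts their adjusted p by edgeR were 0.0481 and 0.0248. For grem1, with 10.4 and 10.3 CPM in wild type and 6.19 and 4.71 CPM in null pools, the log2 difference was -0.92 (adjusted p = 0.246) by edgeR. It was called in 1 of 21 alternative analyses, with only the stage compared fitted (edgeR adjusted p = 0.0406).

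Among the Smads, smad4.2 was called. It is 1 of 2 frog genes in the files for Smad4, the partner that BMP and TGF-beta Smads share. Its levels at stage 35 were 45.1 and 58.7 CPM in wild type, 42.2 and 42.6 CPM in heterozygous and 20.2 and 18.9 CPM in null pools. The null pools were well below the other 4, at 0.377 times the wild type mean (log2 fold change -1.41, SE 0.24, adjusted p = 0.00238, edgeR). The other copy, smad4.1, had 5.32 and 5.00 CPM and 6.25 and 5.36 CPM, a log2 difference of 0.17 (95% interval -0.75 to 1.09). Such copies can share reads, and whether these 2 did was not tested. The BMP receptor Smad gene smad1 had 103 and 109 CPM and 104 and 103 CPM, with a log2 difference of -0.03 (95% interval -0.36 to 0.30). For smad9, another BMP receptor Smad gene, levels were 13.74 and 11.97 CPM in wild type and 16.76 and 16.14 CPM in heterozygous pools. The null pools of smad9, at 18.93 and 18.98 CPM, were above the other 4, and the gene was not called. The activin and TGF-beta receptor Smad genes smad2 and smad3 had log2 differences of -0.21 (95% interval -0.55 to 0.14) and 0.76 (95% interval -0.01 to 1.53). For smad3 the levels were 14.7 and 12.35 CPM in wild type, 13.5 and 12.7 CPM in heterozygous and 23.4 and 22.5 CPM in null pools, with both null pools above the other 4. It was called in 1 of 21 alternative analyses, with only the stage compared fitted (edgeR adjusted p = 0.0268).

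The genes smad6, smad7, bambi, id2, id3 and id4, which BMP signalling is known to switch on, did not pass edgeR's test against wild type at stage 35. The inhibitory Smad genes smad6 and smad7 had log2 differences of -0.38 (95% interval -0.88 to 0.12) and 0.15 (95% interval -0.34 to 0.65). Both null pools of smad6 were below all wild type and heterozygous pools of stage 35. The same held for smad6.2, with 2.11 and 2.14 log2 CPM in null, 3.08 and 2.65 in wild type and 2.84 and 3.03 in heterozygous pools. The gene smad6.2 was not called either. The decoy receptor gene bambi had 117 and 110.4 CPM in wild type, 94.9 and 106 CPM in heterozygous and 154 and 147 CPM in null pools, and its null pools were the highest (log2 fold change 0.40, SE 0.17, adjusted p = 0.145, edgeR). Id proteins block basic helix-loop-helix transcription factors. The gene id3 had 415 and 368 CPM in wild type and 512 and 481 CPM in null pools, a log2 difference of 0.34 (adjusted p = 0.161) by edgeR. For id2 and id4 the differences were 0.10 (95% interval -0.26 to 0.46) and -0.28 (95% interval -0.78 to 0.23), of opposite sign. Both null pools of id4 were below all wild type and heterozygous pools of stage 35, and both null pools of id3 were above them.

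**Figure D3:**
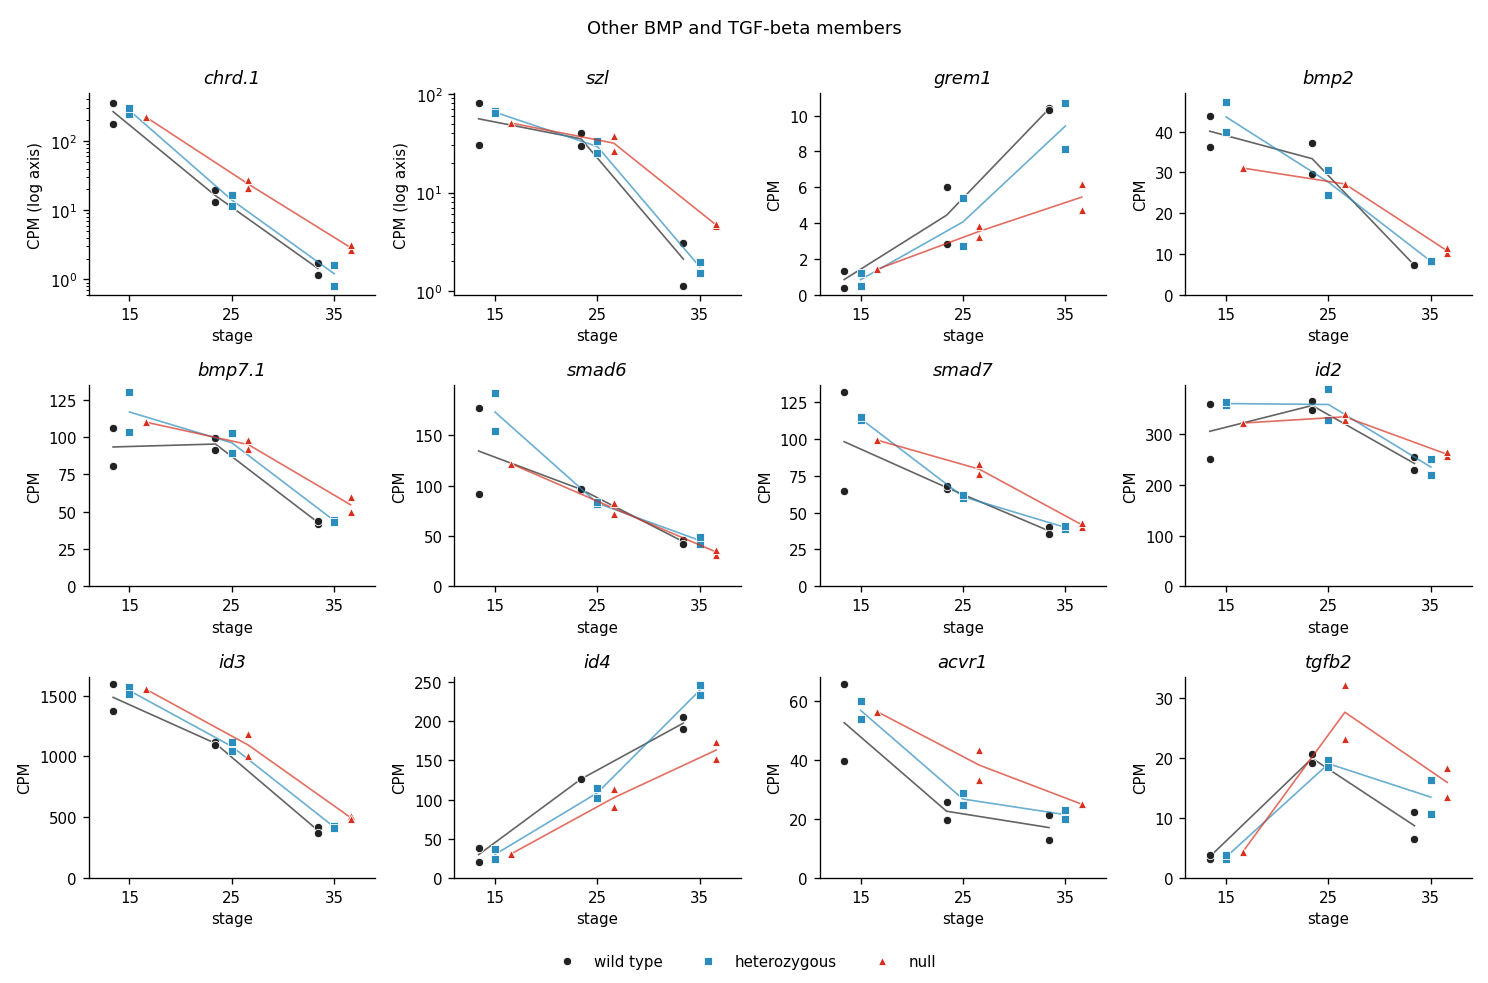
CPM of 12 further pathway genes by stage, with 1 point per pool and lines joining group means; chrd.1 and szl are on log axes and the others on linear axes. At stage 35 the null points lie below the wild type points in grem1, smad6 and id4. They lie above them in the other genes drawn, narrowly so in id2 and smad7. In the main analysis no gene drawn here passed edgeR's test between null and wild type pools at stage 35.

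The number of calls at stage 35 depended on single pools. It was 3 without the second wild type pool of stage 35, when fst, bmp4, bmpr1a, nog and tgfbr3l were lost, and 5 without either null pool, when bmp4, bmpr1a and nog were lost. The calls of bmpr1b, bmp1 and smad4.2 were kept in all 21 alternative analyses. DESeq2 called 10 genes, the 8 of edgeR with fstl1 and tgfb2. The share of all tested genes that DESeq2 called is not given here, so this larger count is not set beside a background. The position of the stage 35 null pools toward stage 25 on the first principal component is given above, and its part in these differences was not tested.

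Tissue markers were also compared between stage 35 pools. Of 27 markers, edgeR called 3 between null and wild type pools, near the share of 9.75% among all tested genes. These were myl1 (skeletal muscle) and nog, both higher, and the neuron gene elavl3, lower. The gene nog is itself a pathway gene of the list. The summed level of the 3 muscle markers was 4254 to 4704 CPM in wild type, 5273 to 5313 in heterozygous and 6342 to 6884 in null pools. That of the 4 neural markers was 775 to 1022 CPM in wild type, 829 to 1072 in heterozygous and 660.3 to 679 in null pools. That of the 3 epidermal markers was 1125 to 2082, 1095 to 2041 and 2225 to 2715 CPM in the same order. For muscle, neural and epidermal markers the null pools did not overlap the others, but the neural and epidermal sums hide markers of opposite direction. Against wild type, epidermal krt12.5 had a fitted log2 difference of -0.31, beside 0.63 for krt12.4 and 1.04 for itln1. Neural sox2 and sox3 had 0.16 and 0.36, beside -0.69 for tubb2b and -0.79 for elavl3. The notochord markers, nog among them, summed to 62.7 to 72.7 CPM in wild type and 63.8 to 71.1 in null pools, and the neural crest markers to 160 to 165 and 150 to 157. Blood and heart markers summed to 599 to 1115 and 53.3 to 54.8 CPM in wild type pools, and to 1549.9 to 1562 and 38.5 to 44.4 in null pools. Endoderm markers summed to 413 to 836 and 411 to 677 CPM. Heterozygous pools had 163 to 168 CPM for neural crest, 58.5 to 84.5 for heart and 783 to 2112 for blood markers. The neural crest and heart sums of null pools thus also lay below those of all other stage 35 pools. The heart and notochord sums hide markers of opposite direction too. Against wild type, heart nkx2-5 had a fitted log2 difference of 0.15, beside -0.48 for myl7 and -0.90 for tnnt2. Among notochord markers nog had 0.95, beside -0.90 for tbxt and -0.17 for shh. For notochord, blood and endoderm markers the null sums fell within the range of wild type or heterozygous pools or overlapped it. At stage 25 edgeR called 0 of the 27, beside 1.78% of all tested genes. The part of these shifts in the differences of the pathway genes was not tested.

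At stage 25 fewer genes were called between null and wild type pools. Of the 63 genes edgeR called 1, tgfbr3l, where 1.78% of all tested genes were called (0.789% higher and 0.986% lower). This gene entered the list through null pools alone. Its counts were 2 and 0 in wild type, 2 and 3 in heterozygous and 28 and 10 in null pools, so that null pools were at least 6.95-fold higher against the floor of 3 counts per library (edgeR adjusted p = 0.0382). The 2 null pools differed from each other, and the call was kept in 9 of 20 alternative analyses. It was lost without the first null pool or either wild type pool of stage 25, with adjusted p of up to 0.239. DESeq2 gave no adjusted p for tgfbr3l and called 1 other gene, bmpr1b.

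The receptor gene bmpr1b had 49.1 and 44.8 CPM in wild type, 55.9 and 44.8 CPM in heterozygous and 80.4 and 66.6 CPM in null pools of stage 25. Its null pools were above the other 4, and edgeR's test was just missed (log2 fold change 0.65, SE 0.16, adjusted p = 0.0546), while DESeq2 gave an adjusted p of 0.00755. The wild type and null pools had 57.4 and 58.8 and 94.6 and 80.5 CPM of bmpr1a, 19.5 and 25.7 and 33.2 and 43.4 CPM of acvr1, and 82.9 and 51.9 and 108 and 98.5 CPM of fst. In each, both null pools were above both wild type pools, and edgeR gave an adjusted p of 0.249, 0.186 and 0.190. The genes that were lower in null pools of stage 35 had small differences at stage 25, 0.01 (95% interval -0.34 to 0.36) for bmp1 and -0.19 (95% interval -0.70 to 0.31) for smad4.2. For bmp4 the log2 difference was -0.03 (95% interval -0.38 to 0.31) and for nog -0.27 (95% interval -0.85 to 0.32).

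Averaged over stages 25 and 35, 6 genes were called higher and 2 lower in null than in wild type pools, where 12.9% of all tested genes were called (6.03% higher and 6.82% lower). The 6 include tgfbr3l, which entered the list through null pools alone. The largest called averages apart from tgfbr3l were in bmpr1b (log2 fold change 0.98, SE 0.12, adjusted p = 9.29e-05) and fst (log2 fold change 0.95, SE 0.15, adjusted p = 0.00111) by edgeR. On average bmpr1a and acvr1 were also higher (log2 fold change 0.72 (SE 0.16) and 0.65 (SE 0.19)), so that bmpr1b, bmpr1a and acvr1 all passed this test (edgeR adjusted p = 9.29e-05, 0.00961 and 0.0327). The ligand gene tgfb2 was higher as well (log2 fold change 0.67, SE 0.21, adjusted p = 0.0448, edgeR). Its call was kept in 10 of 21 alternative analyses and that of acvr1 in 16 of 21, with adjusted p of up to 0.191 and 0.148. The call of tgfb2 was lost with the replicate number as a block and without any 1 of 10 libraries. Among those 10 were all 4 heterozygous pools of stages 15 and 25, both wild type pools of stage 25, both null pools of stage 35, the second null pool of stage 25 and the second wild type pool of stage 35. The last 2 libraries, both null pools of stage 35 and the first wild type pool of stage 25 each took the call of acvr1 away. DESeq2 called 9 genes on average, with chrd.1 added. Lower on average were smad4.2 (-0.80) and bmp1 (-0.56), with adjusted p of 0.00614 and 0.00599 by edgeR. The count was 5 without the second wild type pool of stage 35, when acvr1, bmpr1a and tgfb2 were lost, and 11 without either wild type pool of stage 15; those pools enter this contrast only through the shared spread.

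Whether the null effect differed between the 2 stages was tested in the same fit. None of the 63 genes passed, where 0.141% of all tested genes did; 8 had an unadjusted p under 0.05 by edgeR, and DESeq2 called 1, bmp1. The smallest p was that of bmp1, whose null effect was 0.01 at stage 25 and -1.13 at stage 35 (difference -1.14 (SE 0.24), edgeR adjusted p = 0.0823). Next came smad4.2, with a difference of -1.21 (SE 0.34), and nog, with 1.22 (SE 0.39) (edgeR adjusted p = 0.225 and 0.331). Calls at stage 35 that are missing at stage 25 are therefore not shown to be particular to stage 35.

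**Figure D4:**
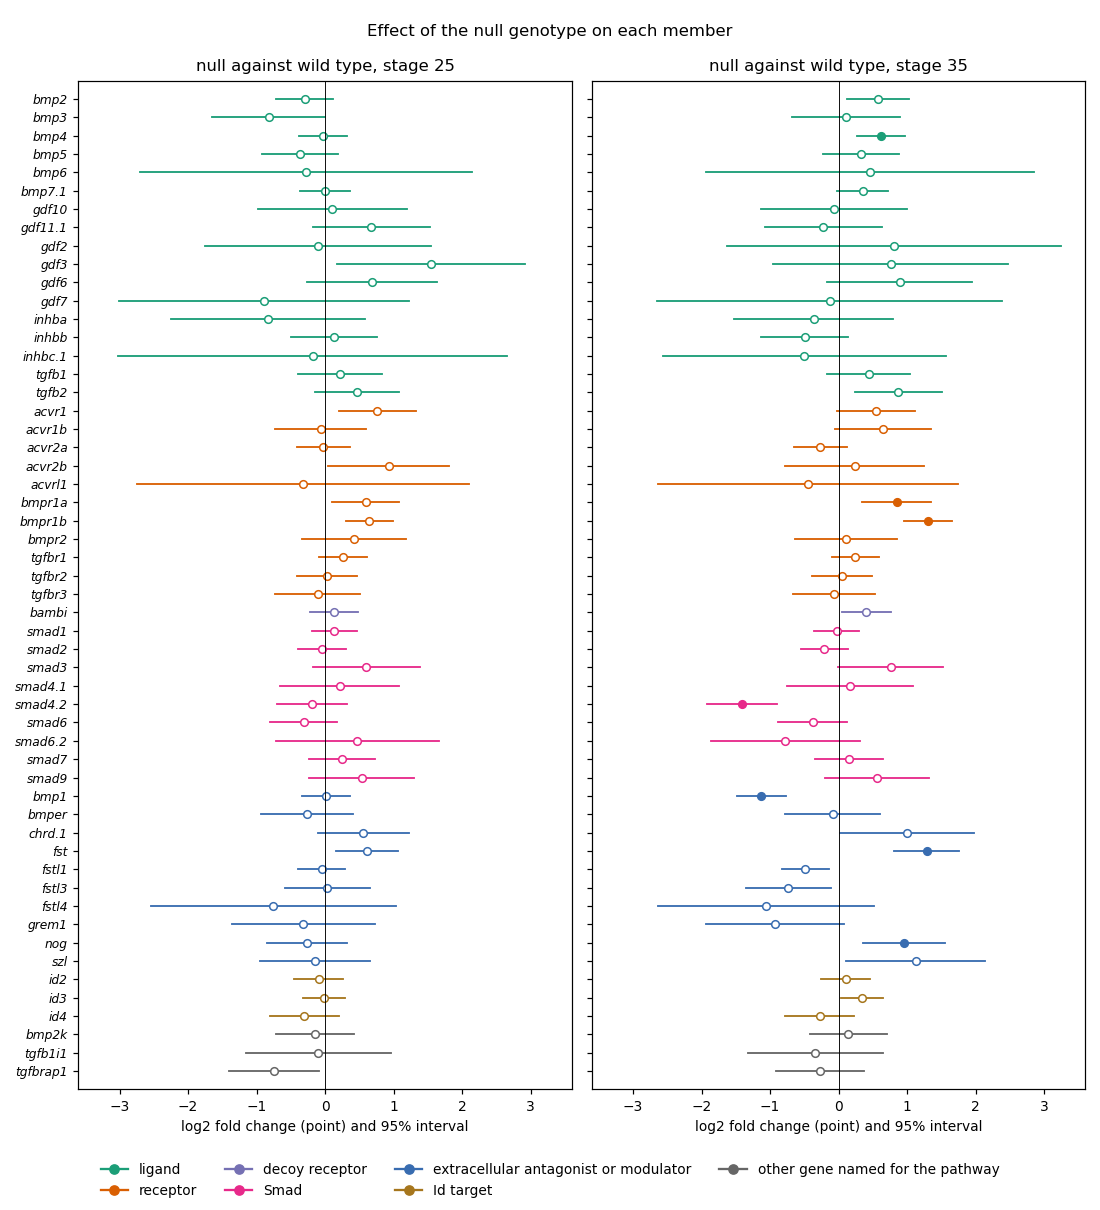
Log2 fold change between null and wild type pools (positive where null was higher) with its 95% interval, at stages 25 and 35, for 54 of the 63 genes (9 with a group at the floor are left out); filled points passed the test. At stage 35 filled points lie to the right for bmpr1b, fst, nog, bmpr1a and bmp4 and to the left for smad4.2 and bmp1, and at stage 25 no point drawn is filled.

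The course between stages 25 and 35 was also read within null pools. In null pools 7 of the 63 genes rose and 19 fell over this interval, where 44.4% of all tested genes were called (23.3% higher and 21.1% lower). The level of bmp1 rose in wild type pools (log2 change 0.67 (SE 0.17)) and fell in null pools (-0.47 (SE 0.17)). For smad4.2 the wild type rise was 0.71 (SE 0.24), and the null change of -0.50 (SE 0.24) did not pass the test (edgeR adjusted p = 0.102). The wild type falls of bmpr1b (-1.18), fst (-1.64), bmp4 (-0.72), nog (-0.78) and bmpr1a (-0.66) stood beside null changes of -0.52, -0.96, -0.07, 0.44 and -0.40 in that order. Of these null changes, those of bmpr1b and fst passed the test. These steps use the same stage 25 and stage 35 pools as the comparisons of genotype, so they are not separate evidence. The count for the null step was 18 without either null pool of stage 35.

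Against heterozygous pools, which form a control separate from the wild type pools, null pools of stage 35 had 5 genes higher and 2 lower, where 6.98% of all tested genes were called (3.34% higher and 3.65% lower). Both comparisons share the null pools. The receptor genes bmpr1b and tgfbr3l, the ligand gene bmp4, fst and bambi were higher, and bmp1 and smad4.2 were lower. Of these, tgfbr3l entered the list through null pools alone, so its call says nothing about the list. By edgeR the log2 fold change was 0.99 (SE 0.16) for bmpr1b and 0.89 (SE 0.22) for fst, with adjusted p of 0.00321 and 0.0255. It was 0.78 (SE 0.17) for bmp4 and 0.58 (SE 0.17) for bambi (adjusted p = 0.0109 and 0.0481). The call of bambi was kept in 5 of 21 alternative analyses. It was lost with DESeq2 size factors, with the replicate number as a block and in 14 of 16 analyses that left out 1 library, all but those without a wild type pool of stage 15. For bmp1 it was -0.82 (SE 0.17) and for smad4.2 -1.11 (SE 0.24) (adjusted p = 0.00913 and 0.0121). The genes nog and bmpr1a missed the threshold here (log2 fold change 0.88 (adjusted p = 0.0747) and 0.51 (adjusted p = 0.221), edgeR). DESeq2 called 9 genes, with chrd.1, nog and szl added, and gave no adjusted p for tgfbr3l. The gene nog was also called by edgeR with only the stage compared fitted and without either wild type pool of stage 15. The count was 1 without the second heterozygous pool or either null pool of stage 35, and 2 without the first heterozygous pool.

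At stage 25, no gene was called between null and heterozygous pools, where 0.0676% of all tested genes were. By edgeR 5 of the 63 genes had an unadjusted p under 0.05, and DESeq2 called 1, fst. The fst levels were 54.9 and 53.6 CPM in heterozygous and 108 and 98.5 CPM in null pools (log2 fold change 0.92, SE 0.22, adjusted p = 0.131, edgeR).

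No pathway gene was called between heterozygous and wild type pools at any stage. By edgeR, and also by DESeq2, 0 of 63 genes were called at stages 15, 25 and 35, where 0%, 0% and 0.00564% of all tested genes were called. An unadjusted p under 0.05 was found by edgeR for 1, 1 and 0 of the 63 genes. At stage 15 this was the activin subunit gene inhbb, with 3.12 and 6.73 CPM in wild type and 2.05 and 1.93 CPM in heterozygous pools (log2 fold change -1.29, SE 0.35, adjusted p = 0.767). At stage 25 it was fstl5, at 0 and 0 counts in wild type and 3 and 4 counts in heterozygous pools, where no fold is given.

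At stage 35 the heterozygous level of bmpr1b differed from wild type by 0.32 (95% interval -0.03 to 0.68) on the log2 scale, that of bmp1 by -0.31 (95% interval -0.66 to 0.05) and that of smad4.2 by -0.29 (95% interval -0.79 to 0.21). The choice of wild type pool mattered at stage 15. With the first wild type pool left out, so that the second, which stood apart on the first principal component, was the sole wild type pool and was assumed to vary like the other groups, 4 genes were called: inhbb, smad6, smad7 and tgfb1. With the second left out, 0 were called. The 2 wild type pools had 177 and 91.7 CPM of smad6, 132 and 64.4 CPM of smad7 and 1.99 and 5.05 CPM of tgfb1, against heterozygous levels of 154 and 192, 113 and 115 and 1.80 and 2.24 CPM.

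The single null pool of stage 15 allows no test. Its level lay within the range of the 4 other stage 15 pools for 46 of the 63 genes, above all 4 for 8 and below all 4 for 9. These are 73.0%, 12.7% and 14.3% of the genes, beside 66.4%, 16.4% and 17.2% of all tested genes. The genes above were acvr1b, bmp3, bmper, bmpr1b, fstl3, grem1, tgfb2 and tgfbr3, and those below were bmp1, bmp2, bmp2k, bmp4, bmp5, gdf10, gdf7, nodal2 and tgfb1i1. For bmpr1b the null pool had 95.8 CPM, against 89.1 and 80.0 CPM in wild type and 80.8 and 78.7 CPM in heterozygous pools. For bmp4 it had 148 CPM, below 189 and 158 CPM and 158 and 198 CPM.

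Beyond the genes chosen by name, 4 lists of pathway genes, also chosen with earlier results known, were read in the same fit. The first held 11 genes that BMP signalling is known to activate in the embryo, such as the ventral homeobox genes of the ventx family, msx1 and gata2. At stage 25 edgeR called none between null and wild type pools, 0 had an unadjusted p under 0.05, and DESeq2 called 0. At stage 35, edgeR called 2 of 11 higher, ventx2.1 and ventx2.2, and none lower, beside 4.80% and 4.95% of all tested genes, with a list median log2 fold change of 0.50 beside -0.03 for all tested genes. DESeq2 called 4 of the 11, with gata3 and msx1 added. The gene ventx2.1 had 2.49 and 1.44 CPM in wild type, 1.68 and 2.35 CPM in heterozygous and 9.32 and 7.32 CPM in null pools (log2 fold change 2.07, SE 0.28, adjusted p = 0.000554, edgeR). For ventx2.2 the levels were 2.22 and 2.35, 1.76 and 1.70 and 8.85 and 7.82 CPM (log2 fold change 1.87, SE 0.25, adjusted p = 0.000466, edgeR). Both genes had null pools above the other 4, and the 2 are close copies that may share reads.

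These 2 genes also passed the test of a difference of the null effect between stages. The difference was 2.16 (SE 0.36) for ventx2.1 and 1.92 (SE 0.31) for ventx2.2 (edgeR adjusted p = 0.0205 for each). In wild type pools of stage 25 they had stood at 70.5 and 58.7 and 80.1 and 77.0 CPM, so the stage 35 levels of all genotypes were far down from there. In wild type embryos 10 of the 11 genes fell in the first step and 10 in the second, and none rose (edgeR), where 16.9% and 22.5% of all tested genes fell. In null pools 10 of 11 fell between stages 25 and 35, where 21.1% of all tested genes fell.

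The second list held targets of TGF-beta and nodal, of which 10 of 11 were tested. At stage 35, edgeR called 2 higher in null than in wild type pools and none lower, beside 4.80% and 4.95% of all tested genes, with a list median log2 fold change of 0.44. DESeq2 gave an adjusted p for 9 of the 10 and called 3, with gsc added. On average over stages 25 and 35, edgeR called gsc lower and junb higher. The gene junb, a subunit of the AP-1 transcription factor, had 29.0 and 18.0 CPM in wild type and 47.2 and 96.6 CPM in null pools (log2 fold change 1.61, SE 0.36, adjusted p = 0.0120, edgeR). Its second null pool was well above the first, and leaving out that pool or the second wild type pool took the call away (log2 fold change 1.01 without that null pool). The endoderm homeobox gene mixer had 3 and 2 counts in wild type and 34 and 23 counts in null pools, at least 8.55-fold higher against the floor of 3 counts per library (edgeR adjusted p = 0.0442). The call of mixer was kept in 16 of 21 alternative analyses, and it was lost with the replicate number as a block and without any 1 of the 4 pools compared (adjusted p of up to 0.25). Against heterozygous pools junb and mixer were higher and the organizer gene gsc was lower, with 8.57 and 14.0 CPM in heterozygous and 3.54 and 2.25 CPM in null pools (log2 fold change -1.95, SE 0.48, adjusted p = 0.0245, edgeR).

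In the third list, of 32 other extracellular modulators, 27 were in the files and 26 were tested. At stage 35 edgeR called none between null and wild type pools, 4 had an unadjusted p under 0.05, and DESeq2 called 2 (nbl1 and rgma). Against heterozygous pools, cer1, which encodes the nodal and BMP antagonist Cerberus, and tll1, which encodes a protease related to bmp1, were higher. The cer1 levels were 0.306 and 0.243 CPM in heterozygous, 2.18 and 2.03 CPM in null and 0.539 and 0.833 CPM in wild type pools. The fourth list held 19 intracellular regulators, of which edgeR called 1 at stage 35, the repressor gene zeb1, beside 9.75% of all tested genes. DESeq2 called 2, zeb1 and ppm1a. The level of zeb1 was 61.8 and 64.2 CPM in wild type and 39.8 and 38.1 CPM in null pools (log2 fold change -0.69, SE 0.21, adjusted p = 0.0447, edgeR). The call of zeb1 was kept in 11 of 21 alternative analyses. Its relative zeb2 was higher on average over the 2 stages (log2 fold change 0.54, SE 0.16, adjusted p = 0.0383, edgeR). The Smad phosphatase gene ppm1a was lower against heterozygous pools (129.7 and 123 CPM and 93.2 and 83.4 CPM; log2 fold change -0.52 (SE 0.14)).

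**Figure D5:**
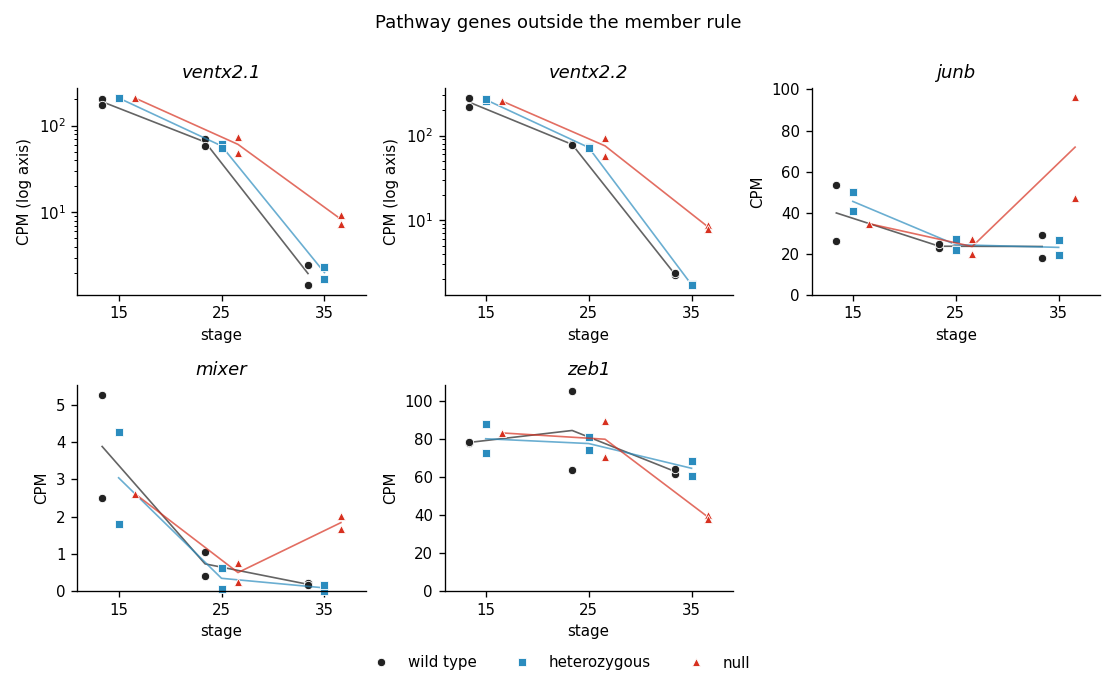
CPM by stage of the 5 genes of these lists that were called between null and wild type pools at stage 35, with 1 point per pool and lines joining group means; ventx2.1 and ventx2.2 are on log axes and the others on linear axes. At stage 35 both null points lie above the wild type points in ventx2.1, ventx2.2, junb and mixer and below them in zeb1.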

How the data were processed

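The authors deposited 1 table per library of raw counts per gene, per the file headers. Per the submitters' processing notes, bcl2fastq 2.20 and STAR were used. Per the labels' protocols, libraries were stranded and polyA-selected. The counting program, genome build, annotation, strand setting and treatment of reads shared between gene copies are not given in the sources used here, and the labels name no molecular identifiers. All 63 gene names matched a RefSeq symbol (assembly UCB_Xtro_10.0), which was used for names only; chordin is listed as chrd.1.

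The genes, their roles, the 4 further lists and the rule for named genes were chosen with earlier results of these data known; 1 gene of a further list is not reported here. Named were all genes called in a genotype comparison, a set of core pathway genes whatever their test, and sf3b4. Called genes of the further lists were named too, as were the 4 largest called rises and falls of each wild type step. Those rises and falls were limited to genes with a mean log2 CPM of at least 1 and pools not overlapping. Other genes named were outside this rule, among them those named for an unadjusted p or a position. They were chosen after their values were seen.

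Genes were filtered with filterByExpr (minimum count 10, minimum total 15) and scaled by TMM over all 17 libraries. The quasi-likelihood test of edgeR 4.0.16 (with limma 3.58.1, R 4.3.3) had 1 coefficient for each of 8 groups, 16 libraries and 8 residual degrees of freedom, with a common dispersion of 0.0427. Tests were two-sided, with Benjamini-Hochberg adjustment over 17742 genes within each of 12 comparisons, with a threshold of 0.05. Standard errors were back-calculated from the test statistic, and 95% intervals use 15.4 degrees of freedom. The single stage 15 null library entered no test. CPM use TMM-scaled library sizes and are not divided by gene length, so levels are not compared between genes. Log2 CPM used a prior count of 2. A group with 3 or fewer counts in every library was taken as at the floor; floors cover counting error only. The procedure was tested on simulated data.

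Alternatives were DESeq2 size factors, no filter, only the stages compared, the replicate number as a block, the DESeq2 1.42.0 Wald test, and leaving out each of 16 libraries. Shares of all tested genes are given for the main analysis only. Counts of calls in the alternatives therefore stand without a background. Replicate numbers were checked for pairing by the correlation of deviations from group means.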

Additional observations from a re-analysis of the deposited data

Results flagged for a closer look

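The null effect of ventx2.1 and ventx2.2, both targets of BMP signalling, differed between stages 25 and 35 by the test of the difference itself. The effect at stage 35 minus that at stage 25 was 2.16 (SE 0.36) for ventx2.1 and 1.92 (SE 0.31) for ventx2.2 on the log2 scale (edgeR adjusted p = 0.0205 for each). The 2 are close copies that may share reads, so they may not be separate results. In all genotypes their stage 35 levels were far below those of wild type pools at stage 25. The stage 35 null pools lay toward stage 25 on the first principal component, and the part of this in the difference was not tested.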

How the results depend on the processing

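Results are the numbers of the 63 genes called and the log2 fold changes of named genes at stages 25 and 35. Of the latter, 1113 values kept their side of the threshold, 49 lost the call and 11 gained it. Of values called in either setting 0 changed direction, and 32 values called in neither changed sign. For null against wild type at stage 25, the count of 1 became 2 with DESeq2 size factors (with bmpr1b), and 0 with only the stages compared or with the replicate block. For the difference between stages, the count of 0 became 2 with no filter (bmp1 and smad4.2), 1 with only the stages compared and 1 with DESeq2. For null against heterozygous at stage 25 it became 1 with no filter and 1 with DESeq2 (fst in both). The cause was not tested.

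Leaving out 1 library at a time gave 0 to 2 calls for null against wild type at stage 25, 3 to 9 at stage 35, 5 to 11 for their average and 0 to 1 for the difference. It gave 0 to 0 and 1 to 9 for null against heterozygous at stages 25 and 35. For heterozygous against wild type it gave 0 to 4 at stage 15, and 0 to 0 at stages 25 and 35. It gave 20 to 32 and 22 to 35 for the wild type steps, and 18 to 34 for the null step. At stage 25 the 1 call of null against wild type was lost without any of 9 libraries of stages 25 and 35: either heterozygous pool of stage 25 or 35, either wild type pool of stage 25, the first null pool of stage 25 or either null pool of stage 35.

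Same-numbered pools did not deviate together: over 28 pairs of groups r ran from -0.37 to 0.15, and 4 were over 0.1. With the replicate number as a block, 7 genes were called at stage 35 against wild type (nog was lost), 7 on average (tgfb2 was lost), 6 against heterozygous pools (bambi was lost), 29 and 32 in the wild type steps and 26 in the null step. Crossed numbers, chosen after seeing the data, were tried where the groups compared had r under -0.1. They gave 0 calls for heterozygous against wild type at stages 15 and 35 and for null against heterozygous at stage 25, and 33 for the later wild type step.

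Genes near the floor, such as tgfbr3l, mixer, cer1 and fstl5, are limited by depth. With 2 pools per group, differences that missed the threshold are not shown to be absent. Copies such as bmp7.1 and bmp7.2, smad4.1 and smad4.2, smad6 and smad6.2 or ventx2.1 and ventx2.2 can share reads.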
